A study of Mus musculus with 6 samples.

Results

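Eph receptors and ephrins were followed in 10 genes taken by symbol from the deposited count table, which lists 52997 gene symbols. They are the receptor genes Epha3, Epha4, Epha7, Ephb2, Ephb3 and Ephb4 and the ligand genes Efna1, Efna5, Efnb1 and Efnb2. All 10 symbols were found. The other 12 genes of the family are given more briefly. The cells were mesenchymal stromal cells from untreated C57BL/6 mice aged 8 weeks, from hindlimb skeletal muscle or from a pool of inguinal, axillary, brachial and cervical lymph nodes. Each of the 6 libraries, 3 per tissue, was made from 1000 cells that were sorted and then sorted again. No genetic change, treatment or time course separates the groups, and no source used here gives the sorting markers.

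Eph receptors are receptor tyrosine kinases that bind ephrins on neighbouring cells, so the signal passes only where cells touch. Ephrin-A ligands are held in the membrane by a lipid anchor and ephrin-B ligands span it, and the ligand-bearing cell can signal as well (reverse signalling). The system is known for repelling axons and cells, for keeping cell populations apart at tissue borders and for separating arteries, which carry ephrin-B2, from veins, which carry EphB4. EphA receptors bind mainly ephrin-A ligands and EphB receptors mainly ephrin-B ligands, with EphA4 binding both kinds.

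The muscle libraries are named 2, 3 and 4 and the lymph node libraries 1, 2 and 3, after the columns of the table. The submitters call the 3 samples per tissue biological replicates. The titles of a pair of muscle samples share a number, so p-values may measure a spread that is partly technical. No muscle column is tied to a title, so the libraries left without muscle library 4 may be that pair. Calls made only without muscle library 4 carry this limit. Total counts were between 1256276 and 2397134 in 5 libraries and 415460 in muscle library 4. A single read was thus worth 2.69 CPM (counts scaled to a common library total, corrected by TMM factors) in muscle library 4 and between 0.43 and 0.77 CPM elsewhere. Muscle library 4 stood apart across genes (Pearson r of log2 CPM at most 0.705 with any other library, against at least 0.873 among the other 5, over genes, which are not independent replicates). Its summed B cell, T cell and myeloid markers were 1874, 452 and 715 CPM. The same sums were at most 260, 12.7 and 28.7 CPM in the other 5 libraries. Of the myeloid sum in muscle library 4, Ptprc made up 589 CPM and Lyz2 83.3 CPM. There 3 of the 9 listed myeloid markers had 0 counts, so that sum rests mostly on Ptprc. All 12 stromal markers were tested, and their sum, of which Col3a1 was the largest part, was between 70694 and 108986 CPM in every library. All but Col1a1, Col3a1, Lum and Thy1 were lowest in muscle library 4. Pdgfra, Ly6a and Cd34 measured 651, 495 and 1438 CPM there and at least 1193, 941 and 2129 CPM in the other 5 libraries. Fold changes and ratios of the members and of the named pathway genes are therefore given with and without muscle library 4.

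Epha3, which encodes a receptor with high affinity for ephrin-A5, was the member that differed between tissues in all fits. The level of Efna5, the gene of that ligand, was also lower in each muscle library than in any lymph node library, but did not pass the test over all 6 libraries (edgeR adjusted p = 0.286). Of the 10 members, 8 passed the filter on low counts, and 1 was called lower and 0 higher in muscle (two-sided quasi-likelihood test of edgeR at a Benjamini-Hochberg adjusted p under 0.05). Over all 10823 tested genes 2.86% were called lower, 1.46% higher and 4.32% in either direction, so 1 of 8 rests on a single gene. At an unadjusted p under 0.05 there were 2 lower members and 1 higher member, where 8.42% of all tested genes were lower and 6.71% higher (15.1% in either direction). DESeq2, with all 10 members tested, and limma-voom, with 8, also called 1 lower and 0 higher. They called 403 of 14203 and 421 of 10823 tested genes lower. Without muscle library 4, 9 members were tested and 2 were called lower and 0 higher, where 7.58% of 11246 tested genes were called lower and 12.4% in either direction. Log2 fold changes are given as muscle minus lymph node throughout. Their median was -0.14 over the 8 tested members and 0.017 over all tested genes.

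**Figure D1:**
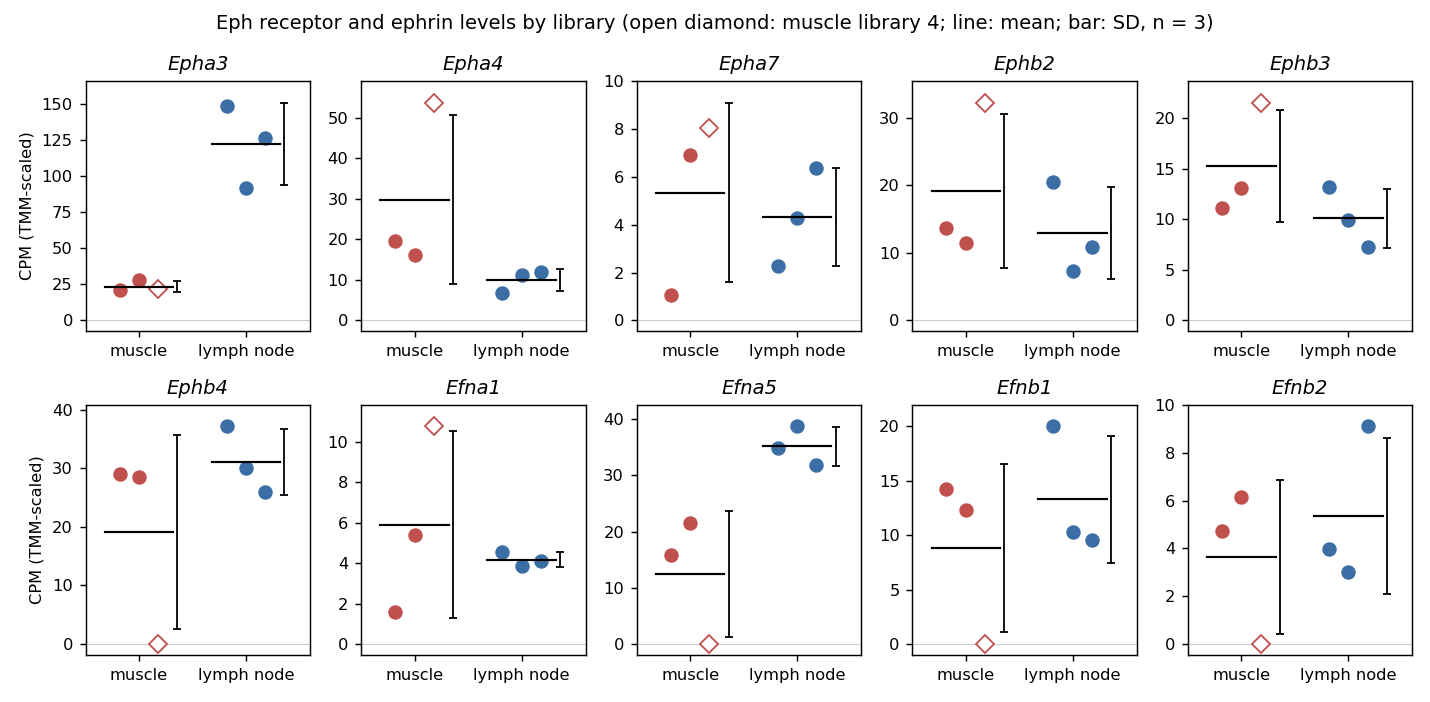
TMM-scaled CPM of the 10 members (y axis, a separate scale for each gene) in the 3 muscle and 3 lymph node libraries (points), with the mean as a line and the SD as a bar (n = 3 per tissue). Muscle library 4 is the open diamond: it lies with the other muscle libraries for Epha3, above them for Epha4, Epha7, Ephb2, Ephb3 and Efna1, and at 0 for Ephb4, Efna5, Efnb1 and Efnb2.

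The sequence before the transcription start of 3 members is shown because they are the receptor and ligand that were both lower in muscle, Epha3 and Efna5, and the member whose levels lay the other way without overlap, Epha4. The sequences are from RefSeq (GRCm38.p6), which held all 10 members. They cover the 250 bases before the start, with each CpG dinucleotide in capitals.
Epha3 (chr16:63864176-63864425, minus strand): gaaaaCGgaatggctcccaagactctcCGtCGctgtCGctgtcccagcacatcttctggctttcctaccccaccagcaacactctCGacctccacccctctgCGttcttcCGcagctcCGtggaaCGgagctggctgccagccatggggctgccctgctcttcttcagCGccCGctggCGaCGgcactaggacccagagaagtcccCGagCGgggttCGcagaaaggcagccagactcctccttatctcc
Efna5 (chr17:62881318-62881567, minus strand): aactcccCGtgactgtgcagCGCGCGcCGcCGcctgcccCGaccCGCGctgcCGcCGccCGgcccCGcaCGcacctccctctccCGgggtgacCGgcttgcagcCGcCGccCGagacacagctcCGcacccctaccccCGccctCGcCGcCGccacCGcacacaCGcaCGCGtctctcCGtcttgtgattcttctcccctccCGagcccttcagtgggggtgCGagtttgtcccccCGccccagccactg
Epha4 (chr1:77515089-77515338, minus strand): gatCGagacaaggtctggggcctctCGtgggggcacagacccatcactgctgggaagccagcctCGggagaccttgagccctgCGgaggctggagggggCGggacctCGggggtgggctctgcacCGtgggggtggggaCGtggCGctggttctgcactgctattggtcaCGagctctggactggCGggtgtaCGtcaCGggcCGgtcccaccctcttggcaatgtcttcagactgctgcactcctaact
These windows hold 16, 32 and 14 CpG dinucleotides, respectively, where the median over 32851 such windows of all genes is 6. The lowest count in any window of the 10 members was 12, in Ephb4, and 33.5% of all windows hold at least that many. That cutoff was taken from the members themselves, so all of them reach it by construction. The Epha3 window holds neither a GC box (GGGCGG) nor a CCAAT box (CCAAT), read on both strands. The Efna5 window holds 4 GC boxes and the Epha4 window 1 GC box and 1 CCAAT box. GC and CCAAT boxes occur in 32.7% and 33.8% of all windows. The AP-1 motif TGANTCA, which 6.75% of all windows hold, was found in none of the members' windows. The matches do not overlap each other.

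Among EphA receptors, Epha3 (chromosome 16, 63543534 to 63864175, GRCm38, minus strand) measured 21.1, 27.7 and 21.5 CPM in muscle libraries 2, 3 and 4. It measured 148, 91.9 and 127 CPM in lymph node libraries 1, 2 and 3. The muscle values lay close together, but that of muscle library 4 rests on 8 counts, each worth 2.69 CPM. The lowest lymph node library was 3.32-fold above the highest muscle library. The muscle mean was 23.4 ± 3.68 CPM and the lymph node mean 122 ± 28.5 CPM (SD, n = 3 each). The log2 fold change was -2.36 ± 0.27 (SE, 95% confidence interval from -2.97 to -1.76, edgeR adjusted p = 0.00140), which is 5.15-fold higher in lymph node. It was -2.35 ± 0.24 without muscle library 4 (edgeR adjusted p = 1.25e-05). The value rests on 84 muscle counts and 752 lymph node counts. Of the 25-base words in its transcripts 1.35% also occur in other genes, so few of its reads can be shared with relatives. In these bulk libraries fewer cells with a transcript and less transcript per cell cannot be told apart.

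Epha4, the receptor that binds ephrins of both classes, measured 19.5, 16.1 and 53.8 CPM in muscle libraries 2, 3 and 4 and 6.85, 11.2 and 11.8 CPM in lymph node libraries 1, 2 and 3. The tissues did not overlap, with muscle higher, and muscle library 4 was the highest. The log2 fold change was 1.38 ± 0.51 (edgeR adjusted p = 0.221). It was 0.82 ± 0.35 without muscle library 4 (interval from 0.081 to 1.56, edgeR adjusted p = 0.160). Epha4 did not pass the threshold in either fit. Summed markers of muscle fibres and their precursors were 63.3 and 76.1 CPM in muscle libraries 2 and 3, 21.5 CPM in muscle library 4 and between 11.4 and 18.5 CPM in lymph node. In muscle libraries 2 and 3 most of that sum was the fibre genes Acta1 and Tnnt3, while Pax7, which marks muscle stem cells, had at most 3 counts in any library. Their part in the Epha4 level was not tested.

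Epha7, a receptor known from axon guidance, was near the limit of detection. It had 2, 9 and 3 counts in the muscle libraries and 4, 10 and 14 in the lymph node libraries, or between 1.05 and 8.06 CPM. Its log2 fold change was 0.011 ± 0.93 (edgeR adjusted p = 0.999) and the interval, from -2.09 to 2.11, allows a 4-fold difference either way. With muscle library 4 left out the log2 fold change was -0.29 (interval from -1.89 to 1.31).

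Among EphB receptors, which act mainly with ephrin-B ligands, no member differed detectably. Ephb4, the receptor of venous endothelium, had 55 and 37 counts in muscle libraries 2 and 3, which is 29.0 and 28.4 CPM. It measured 37.1, 30.1 and 25.9 CPM in lymph node libraries 1, 2 and 3. Muscle library 4 had 0 counts of it, where the mean of the other muscle libraries would have given 10.7 counts. A count of 0 allows up to 8.06 CPM there (3 counts, counting error only), which is below every other library. With all libraries the log2 fold change was -0.45 ± 0.54 (edgeR adjusted p = 0.786). Without muscle library 4 it was -0.11 ± 0.24 (edgeR adjusted p = 0.857), with an interval from -0.63 to 0.41, so a difference as large as that of Epha3 lies outside it. Exons of Ephb4 overlap those of Zan on the opposite strand, and the counting's strand setting is not stated in any source used here. Zan itself had 15 muscle and 13 lymph node counts, or means of 4.16 and 2.04 CPM (n = 3 each). The part of Zan in the Ephb4 level was not tested.

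Endothelial markers bear on Ephb4 and Efnb2, since both are known from vessels. Of the summed level of 15 such markers most was Tek, at between 121 and 366 CPM. The other 14 together were between 19.0 and 21.5 CPM in muscle libraries 2 and 3, 88.7 CPM in muscle library 4 and between 23.6 and 26.3 CPM in lymph node. The defining gene Cdh5 had at most 2 counts in any library and Cldn5 had 0 in all. Of the 88.7 CPM in muscle library 4, Pecam1, which some blood cells also express, made up 59.1 CPM. The part of endothelial cells in the Ephb4 and Efnb2 levels was not tested.

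Ephb2, a receptor known from axon guidance and from gut epithelium, measured 13.7, 11.5 and 32.3 CPM in muscle libraries 2, 3 and 4. In lymph node libraries 1, 2 and 3 it was 20.6, 7.30 and 10.9 CPM. The tissues overlapped, and the log2 fold change was 0.40 ± 0.54 (edgeR adjusted p = 0.806). In the fit without muscle library 4 it was 0.0061 (interval from -0.90 to 0.91).

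Ephb3, which like Ephb2 positions cells in the gut, measured 11.1, 13.1 and 21.5 CPM in muscle and 13.1, 9.88 and 7.28 CPM in lymph node. Muscle library 3 and lymph node library 1 were level at 13.1 CPM. The log2 fold change was 0.48 ± 0.44 (edgeR adjusted p = 0.701), and 0.25 without muscle library 4 (interval from -0.58 to 1.09).

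Among ephrin-A ligands, Efna5 (chromosome 17, 62604184 to 62881317, GRCm38, minus strand) had 30, 28 and 0 counts in muscle libraries 2, 3 and 4, which is 15.8, 21.5 and 0 CPM. In lymph node libraries 1, 2 and 3 it had 61, 90 and 70 counts, which is 34.8, 38.7 and 31.9 CPM. The lymph node libraries were even and all above the muscle libraries. The limit of 8.06 CPM that the 0 in muscle library 4 allows is also below them. Over all libraries the log2 fold change was -1.22 ± 0.50 (interval from -2.36 to -0.090, edgeR adjusted p = 0.286). Leaving out muscle library 4 gave -0.94 ± 0.26 (interval from -1.49 to -0.39, edgeR adjusted p = 0.0251), and the gene passed the threshold. The muscle libraries in that fit may be the pair that shares a number. Efna5 also passed over all libraries with no filter on low counts (edgeR adjusted p = 0.0330). With the other libraries left out singly it was not called, and its adjusted p was at most 0.658.

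Efna1, an ephrin-A ligand that inflammatory signals induce in endothelium, did not pass the filter. It had 3, 7 and 4 counts in muscle and 8, 9 and 9 in lymph node. The ratio of the pooled levels, muscle over lymph node, was 0.947 with a 95% exact binomial counting interval from 0.457 to 1.88. It was 0.755 (interval from 0.325 to 1.62) when muscle library 4 was left out.

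Among ephrin-B ligands, Efnb1, which takes part in border formation in the skull and limb, measured 14.2 and 12.3 CPM in muscle libraries 2 and 3, had 0 counts in muscle library 4 and measured 19.99, 10.3 and 9.56 CPM in lymph node. The muscle libraries other than library 4 lay inside the lymph node range. The log2 fold change was -0.29 ± 0.61 (edgeR adjusted p = 0.889). With that library left out it was 0.030 ± 0.39 (interval from -0.81 to 0.87).

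Efnb2, the arterial ligand of EphB4, had 9, 8 and 0 counts in muscle and 7, 7 and 20 in lymph node, and entered the test only without muscle library 4. There its log2 fold change was -0.016 ± 0.59 (interval from -1.28 to 1.25, edgeR adjusted p = 0.993). Its highest library, lymph node library 3, measured 9.11 CPM.

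**Figure D2:**
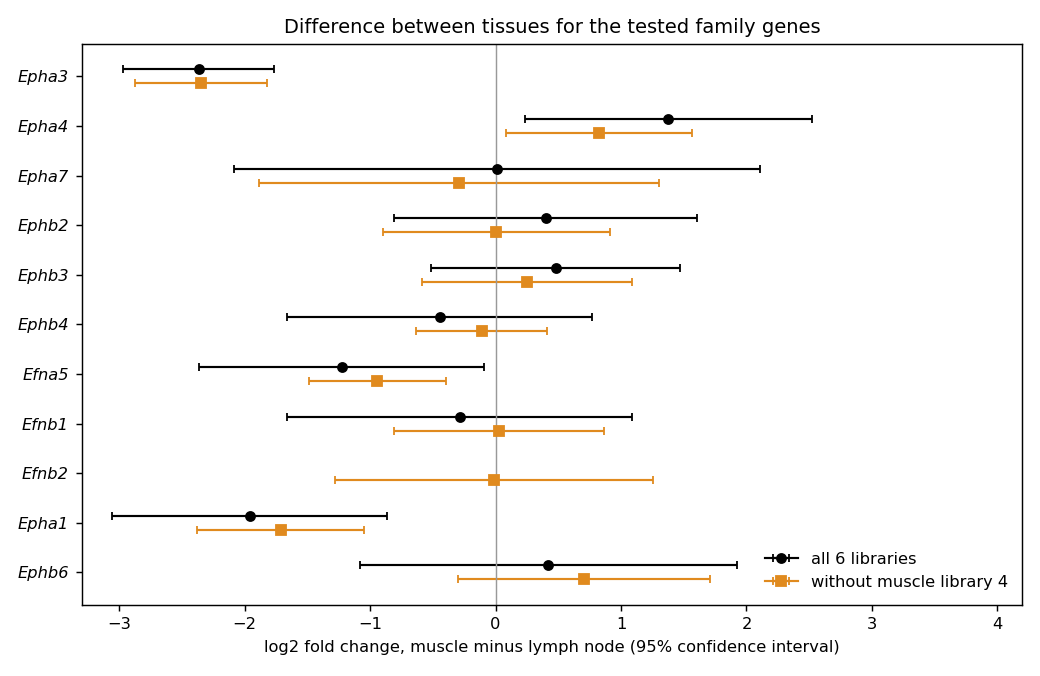
Log2 fold change, muscle minus lymph node (x axis), with its 95% confidence interval from the edgeR fit for the 8 tested members, Efnb2 (tested only without muscle library 4), Epha1 and Ephb6, with all 6 libraries (black circles) and without muscle library 4 (orange squares). Epha3 lies at -2.36 and -2.35 with intervals clear of 0, while those of Epha7, Ephb2, Ephb3, Ephb4, Efnb1 and Ephb6 include 0 in both fits.

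Tissues did not overlap in 3 of the 8 tested members, with Epha3 and Efna5 lower and Epha4 higher in muscle. Over all tested genes 23.6% did not overlap (13.7% lower and 9.93% higher in muscle). With muscle library 4 left out it was the same 3 members, of 9 tested, where 39.7% of all tested genes did not overlap (19.9% lower and 19.8% higher). Muscle library 4 had 0 counts of 4 members, Ephb4, Efna5, Efnb1 and Efnb2. For these the other muscle libraries would have given 10.7, 6.95, 4.94 and 2.03 counts at its depth. For Epha4 and Ephb2 it had 20 and 12 counts where 6.63 and 4.69 would have been given. Epha3, with 8 counts against 9.07, was the member nearest in proportion to the other muscle libraries. The part of the blood cell markers and of the low depth of that library in these values was not tested.

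Of the other 12 family genes 2 passed the filter, and 0 were called higher and 0 lower by edgeR. At an unadjusted p under 0.05, 1 was lower and 0 higher, where 8.42% of all tested genes were lower. DESeq2 and limma-voom called 403 of 14203 and 421 of 10823 tested genes lower. Of these family genes each called 1 lower and 0 higher, with 7 tested by DESeq2 and 2 by limma-voom. That gene was Epha1, an EphA receptor known from epithelium. It measured 9.49, 7.68 and 0 CPM in muscle libraries 2, 3 and 4 and 25.1, 27.1 and 33.2 CPM in lymph node. All lymph node libraries were above all muscle libraries. Its log2 fold change was -1.96 ± 0.49 (edgeR adjusted p = 0.0589), and without muscle library 4 it was called at -1.71 ± 0.31 (edgeR adjusted p = 0.00165). Exons of Epha1 overlap those of Zyx on the opposite strand, and 9.56% of its 25-base words occur in other genes. The counting settings are not stated, so the Epha1 counts may include Zyx reads or miss reads of Epha1. The level of Zyx was 121 ± 21.9 CPM in muscle and that in lymph node 154 ± 14.98 CPM (SD, n = 3 each, log2 fold change -0.32, edgeR adjusted p = 0.529).

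Ephb6, a receptor without kinase activity, measured 10.02, 12.3 and 0 CPM in muscle and 3.43, 9.88 and 6.37 CPM in lymph node (log2 fold change 0.42 ± 0.67, edgeR adjusted p = 0.845). Leaving out muscle library 4, the muscle libraries were both above the lymph node libraries, and the log2 fold change was 0.70 ± 0.47 (edgeR adjusted p = 0.418). The other 10 genes were too low to test. Efna4 had 18 muscle and 9 lymph node counts, and the pooled levels had a ratio of 3.52 (95% counting interval from 1.5 to 8.89), or 3.71 with muscle library 4 left out. Its exons overlap an opposite-strand gene and 10.2% of its words are shared. Epha5, Epha6 and Ephb1, receptors best known from the nervous system, had 11, 7 and 11 counts in muscle library 4, or 29.6, 18.8 and 29.6 CPM. In the other 5 libraries they reached at most 5.38, 2.64 and 4.10 CPM. Exons of Epha6 and of Ephb1 also overlap an opposite-strand gene, and 3.08% and 2.56% of their words are shared. The part of other genes in these counts was not tested. Efna2 had 15 muscle and 21 lymph node counts, Epha8 had 2 counts and Efna3 1 count over all 6 libraries, Efnb3 had 1 per tissue, and Epha10 and Epha2 had 8 and 9 in all.

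Levels can be set side by side between genes only per length, here as CPM per kilobase of annotated exon. That length joins the exons of all annotated transcripts of a gene. Which transcripts the cells express, and the coverage along them, were not checked, so the order is approximate. In lymph node the order was led by Epha3 at 14.1 ± 3.28 CPM per kilobase. Efna5 at 8.71 ± 0.845, Epha1 at 7.25 ± 1.08 and Ephb4 at 6.69 ± 1.22 CPM per kilobase followed (SD, n = 3 each). The lowest Epha3 library, at 10.6, was above the highest Efna5 library, at 9.59 CPM per kilobase. Efna5, Epha1 and Ephb4 overlapped their neighbours in this order. Efnb1 came next at 3.85 ± 1.68, and Efna1 at 2.28 ± 0.195 CPM per kilobase.

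In muscle libraries 2 and 3 the order was led by Ephb4, with a mean of 6.19 CPM per kilobase, before Efna5 at 4.63 and Efnb1 at 3.84 CPM per kilobase. The single values of Efna5 (3.92 and 5.34) and Efnb1 (4.13 and 3.56) overlapped. Epha3 held the sixth place there at 2.80 CPM per kilobase. With all 3 muscle libraries Ephb4 was at 4.13 ± 3.57 and Epha3 at 2.69 ± 0.423 CPM per kilobase (SD, n = 3 each). The leading gene of the order was thus an EphA receptor in lymph node and an EphB receptor in muscle libraries 2 and 3.

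**Figure D3:**
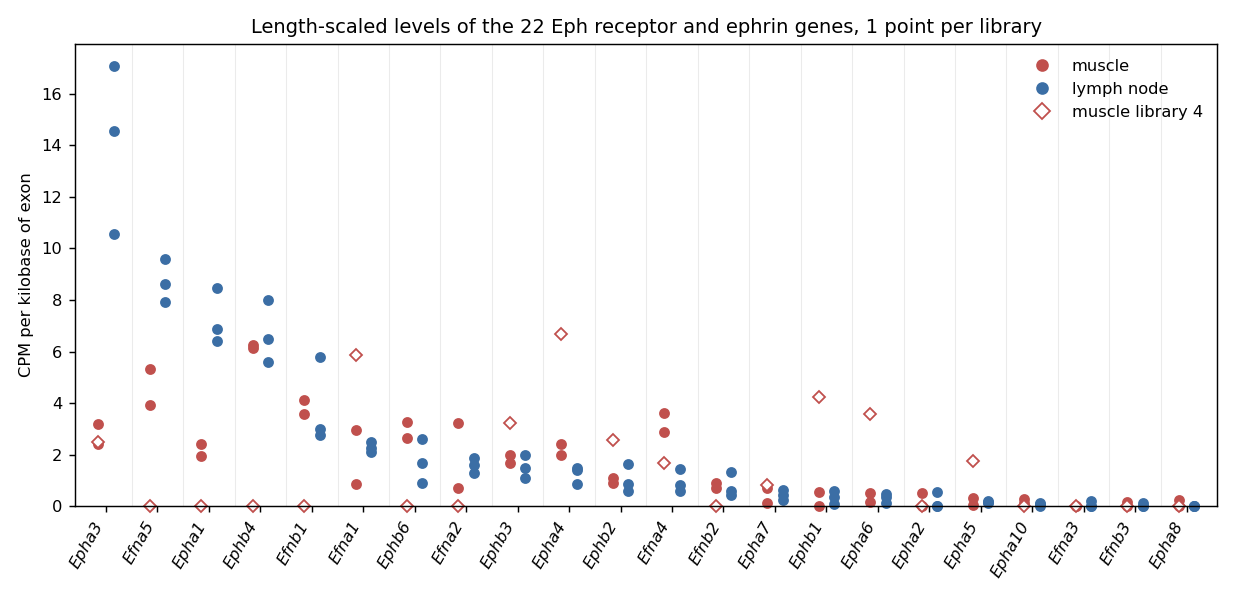
CPM per kilobase of exon (y axis) of all 22 family genes, ordered by their lymph node mean, with 1 point per library (red muscle, blue lymph node, open diamond muscle library 4). Epha3 leads in lymph node at between 10.6 and 17.1, whereas Ephb4 overlaps between lymph node and muscle libraries 2 and 3, and muscle library 4 lies above the rest for Ephb1, Epha6 and Epha5.

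Summed over the 9 EphA receptor genes, muscle libraries 2 and 3 held 58.0 and 67.6 CPM and lymph node libraries between 143 and 186 CPM. Epha3 made up 71.0% ± 7.91 of these EphA counts in lymph node and 31.2% ± 13.1 in muscle (SD, n = 3 each), or 36.4% and 40.9% in muscle libraries 2 and 3. Muscle library 4 held 132 CPM of EphA receptors, of which Epha3 was 16.3%. The 5 EphB receptor genes summed to between 54.6 and 83.3 CPM in every library, with tissues overlapping. The 3 ephrin-B genes summed to 19.5 and 18.4 CPM in muscle libraries 2 and 3, 0 in muscle library 4 and between 13.7 and 24.0 CPM in lymph node. The 5 ephrin-A genes summed to between 13.4 and 33.0 CPM in muscle and between 40.1 and 47.3 CPM in lymph node. These sums count longer genes more.

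Genes that carry, cut or relay Eph and ephrin signals were called about as often as tested genes in general. Of a list of 66 such genes 53 were tested. By edgeR 2 fell in muscle and 0 rose, leaving 51 without a call, where 4.32% of all tested genes were called. At an unadjusted p under 0.05, 3 were lower and 5 higher, where 15.1% of all tested genes passed in either direction. DESeq2 called 2 of 58 tested genes of the list lower and 0 higher, and limma-voom 2 of 53 lower and 1 higher. Over all tested genes they called 403 of 14203 and 421 of 10823 lower, and 242 and 209 higher. The median over the list was 0.056 on the log2 scale, against 0.017 over all tested genes. The genes that fell were Sdcbp, which encodes syntenin, a PDZ protein that binds the tail of ephrin-B ligands, and the transcription factor gene Stat3, which takes signals from many receptors. In muscle Sdcbp was at 310 ± 45.3 CPM, and in lymph node at 552 ± 76.0 CPM (SD, n = 3 each), a log2 fold change of -0.82 ± 0.19 (edgeR adjusted p = 0.0461), or -0.72 ± 0.15 when muscle library 4 was left out. Stat3 measured 145 ± 9.30 CPM against 249 ± 9.11 CPM, a log2 fold change of -0.78 ± 0.17 (edgeR adjusted p = 0.0330), or -0.83 ± 0.14 when muscle library 4 was left out. Without any 1 library other than muscle library 4 neither was called (edgeR adjusted p up to 0.216 for Sdcbp and 0.197 for Stat3). With total-count scaling neither passed either, at 0.105 and 0.0594. Sdcbp also missed the threshold with upper-quartile scaling (adjusted p = 0.0622, edgeR) and Stat3 with no filter (adjusted p = 0.0569, edgeR).

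Without muscle library 4, 2 pathway genes fell and 5 rose of 54 tested, where 7.58% of all tested genes fell and 4.79% rose. The 5, looked up after that count was seen, were Rasa1, Itsn1, Tiam1, Bcar1 and Vav3, at log2 fold changes of 0.87, 0.77, 1.14, 1.33 and 1.11. Rasa1 encodes a Ras GTPase-activating protein that binds activated EphB receptors, and Itsn1, Tiam1 and Vav3 encode exchange factors for small GTPases. Bcar1 encodes the adhesion scaffold p130Cas. Their edgeR adjusted p was between 0.00490 and 0.0492. With all libraries that of Rasa1 was 0.0583 and those of the other 4 were between 0.124 and 0.370. Adam10, a protease that cuts ephrins from the cell surface, had a muscle mean of 101 ± 37.1 CPM and a lymph node mean of 134 ± 17.0 CPM (log2 fold change -0.35, edgeR adjusted p = 0.626, and -0.14 with muscle library 4 left out). Mmp14, a membrane protease that cuts EphA2, measured 127 ± 33.4 and 210 ± 55.6 CPM (log2 fold change -0.70, edgeR adjusted p = 0.232, and -0.53 with muscle library 4 left out).

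The tested genes whose pattern was nearest to that of Epha3 were looked up by the root mean square difference of log2 CPM over the 6 libraries, each gene centred on its own mean. The nearest was Jun, a subunit of the AP-1 transcription factor, at 0.146, followed by the gene model Gm16263 at 0.197 and by Adam23, a surface protein of the ADAM family, at 0.231. Adam23 measured 10.5, 10.8 and 10.8 CPM in muscle libraries 2, 3 and 4 and 66.8, 63.2 and 60.6 CPM in lymph node. Gm16263 had 1 muscle count in all and 43 in lymph node, so its place depends on the prior count of 2 used for the logarithm. Jun measured 783, 982 and 656 CPM in muscle against 4151, 3112 and 3520 CPM in lymph node. The summed level of 30 immediate early and dissociation-related genes, Jun among them, was between 3917 and 4733 CPM in muscle and between 25469 and 27322 CPM in lymph node. Of these genes 29 were tested and 23 were called lower in muscle by edgeR, where 2.86% of all tested genes were. Epha3 and this sum both separated the tissues in every library, and the part of tissue handling in the Epha3 level cannot be told apart from tissue here.

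**Figure D4:**
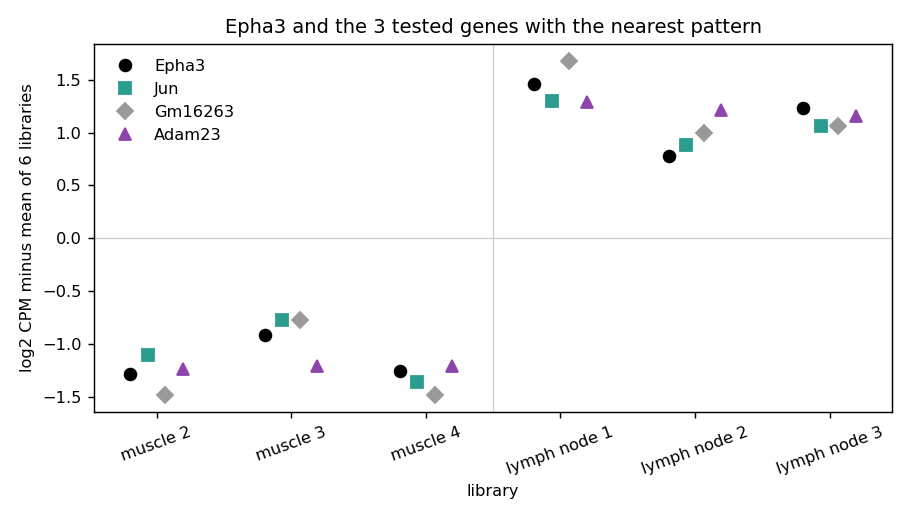
Log2 CPM minus the gene's mean over the 6 libraries (y axis) for Epha3 and the 3 tested genes nearest to it in pattern (Jun, Gm16263 and Adam23), by library (x axis). All points of the 4 genes lie below 0 in the 3 muscle libraries and above 0 in the 3 lymph node libraries.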

How the data were processed

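The deposited table holds raw counts per gene symbol in 6 columns, whole numbers without normalization, as read from the file. The submitters' processing notes name STAR 2.5.4, featureCounts and mm10. Annotation, strand setting and the handling of multiply aligned reads are not stated in any source used here. Per the labels' protocols, amplified oligo(dT)-primed cDNA was read as pairs of 25 bases, with no molecular identifiers described, so counting intervals cover counting error only. Muscle columns are numbered 2, 3 and 4, unlike the muscle titles, so none was tied to a particular muscle sample.

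edgeR 4.0.16 (R 4.3.3) was fitted to the whole table with filterByExpr, TMM factors and a quasi-likelihood F test for tissue alone, with Benjamini-Hochberg adjustment over all 10823 tested genes (11246 without muscle library 4, where the scaling was recomputed for the test). CPM values always use the scaling of all 6 libraries. Standard errors were derived from the fold change and its F value, with t intervals. The common biological coefficient of variation was 0.265 over 6 libraries and 0.151 over 5. Alternatives were scaling by RLE, by the upper quartile or by total counts, no filter, a filter of 10 CPM in 3 libraries, DESeq2 1.42.0, limma-voom (limma 3.58.1), leaving out each library, and a block by column number. The procedure was tested on simulated data, with changes planted only in genes above a set mean level and no library given another cell content. That test thus does not cover members with few counts or the cell content of muscle library 4. Gene positions, exon lengths and shared 25-base words come from GENCODE M21 (GRCm38).

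The members, gene lists and rules were chosen with earlier results of these data known. Named are all 10 members, the other family genes, up to 4 called pathway genes each way by smallest p, Adam10, Mmp14, and the 3 genes nearest in pattern to the called member of smallest p each way. Marker lists covered stromal, endothelial, lymphatic endothelial, mural, muscle, Schwann, T, B and myeloid cells. Summed lymphatic endothelial markers were between 11.4 and 16.4 CPM, and 61.8 CPM in muscle library 4. Mural markers were between 84.4 and 118 CPM in muscle and between 186 and 205 CPM in lymph node, mostly Abcc9 there. Schwann cell markers were between 13.1 and 53.8 CPM in muscle and between 34.3 and 37.3 CPM in lymph node.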

Additional observations from a re-analysis of the deposited data

How the results depend on the processing

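Epha3 stayed called and lower in muscle under all 14 alternatives, at log2 fold changes between -2.56 and -2.15 (edgeR, DESeq2 or limma-voom adjusted p at most 0.0162). The count of lower members was 2 with no filter, the second being Efna5, and between 1 and 2 when 1 library was left out. Epha1 was the 1 other family gene called lower by DESeq2, by limma-voom and with no filter, and that count was between 0 and 1 when 1 library was left out. Lower pathway genes numbered 1 with upper-quartile scaling, 0 with total-count scaling and 1 with no filter, and between 0 and 2 with 1 library left out. Higher pathway genes numbered 1 with total-count scaling or limma-voom, and between 0 and 5 with 1 library left out. Over all genes, 242 were called higher by DESeq2, and 419 higher and 526 lower with no filter. With 1 library left out the higher count was between 28 and 539 and the lower count between 114 and 852, the largest without muscle library 4. Some members that were not called changed sign. Epha7 was -0.070 with no filter and -0.33 with limma-voom. Leaving out 1 library gave Epha7 between -0.64 (muscle library 3) and 0.71 (muscle library 2), with -0.29 when muscle library 4 and -0.24 when lymph node library 1 was left out. Leaving out 1 library gave Efnb1 between -0.68 (muscle library 2) and 0.059 (lymph node library 1), with 0.030 when muscle library 4 was left out. The cause was not tested.

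A block by column number is informed only by numbers 2 and 3, which both tissues share, and nothing says that a number marks a shared animal or day. Deviations of same-numbered libraries had r = -0.03 (number 2) and 0.02 (number 3) over genes. With the block 2 of 8 tested members, 1 of 2 other family genes and 2 of 53 pathway genes were lower. Of the 53 pathway genes 7 were higher. Over all 10823 tested genes 627 were higher and 903 lower, against 158 and 310 without the block. Ephb4, Efnb1 and Epha7 were 0.032, 0.42 and -0.60 with the block. The members had between 14 and 92 counts over all muscle libraries, which limits the differences that could be detected.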
